A study of Mus musculus with 4 samples.

Results

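The immunoglobulin heavy-chain V genes (symbols starting with Ighv) are the gene segments that give the antibody heavy chain most of its antigen-binding domain. Every gene whose symbol starts with these letters was taken, which gave 185 of the 32285 genes counted. Ighv5-8 and Ighv1-13 each name a pair of gene identifiers, which were kept apart. The transcripts were measured by 3' single-cell RNA-seq in bone marrow of 4 mice bearing 5TMM myeloma, one library per mouse. In all 4, the mouse myeloma line 5TGM1-luc had been injected intravenously into 6-week-old C57BL/KawRij mice. After 3 weeks, 2 mice received vehicle and 2 received 10 mg/kg purinostat mesylate (PM), an inhibitor of class I and IIb histone deacetylases, and marrow was collected 24 h later, with erythrocytes lysed. No normal mouse was in the series, so the vehicle mice carry the tumour too, and all tumour cells descend from 1 injected line. Each mouse is 1 library with no marker for a shared cage or day, and p-values measure the spread between these 4 mice.

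A heavy chain gene is assembled in developing B cells: the recombinase made of RAG1 and RAG2 first joins a D to a J segment, and then joins 1 of many V segments to that DJ. The pro-B cell carries out these joins, the pre-B cell tests the product with a surrogate light chain, and allelic exclusion leaves most B cells with a single productive heavy chain. Plasma cells and myeloma cells, which secrete antibody, inherit the choice, so that a clone shares 1 V gene. The 3' chemistry reads the far end of the transcript, in the constant region, and the V segment lies at the other end. Few V molecules were therefore counted, and the leading V gene of a cell was read as the V gene with the most unique molecular identifiers (UMIs, counts of distinct captured molecules), with ties left out.

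The 185 genes lie on chromosome 12 between positions 113572927 and 116010093 of GRCm38, a span of 2.44 Mb, and 183 are on the minus strand. The annotation (GENCODE vM21) calls 113 of them V genes, 70 V pseudogenes and 2 a further V type. Family 1, the large family at the end far from the D, J and constant segments, has 93 members, all beyond position 114351705. Family 5 has 22 members and family 2 has 11, and both start near the D segments, at positions 113572927 and 113574245. In the cells kept, 95 members had at least 1 UMI: 83 of the 113 V genes, 12 of the 70 pseudogenes and 0 of the 2 others. Their 4396 UMIs were split into 4258 on V genes and 138 on pseudogenes. Rhox5-negative plasma-like cells held 3431 of them, Rhox5-positive myeloma-like cells 425 and B cells 209. All cells outside the B and plasma-like clusters held 325, of which 76 were in clusters left unnamed.

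The germline sequences of 5 members are shown because the results turn on them: Ighv1-54 led the myeloma-like cells, Ighv1-14 is a pseudogene counted beside it in those cells, Ighv1-26 and Ighv1-72 led the most plasma-like cells, and Ighv9-3 is a frequent member from another family. Each is the last 300 bases of the GENCODE vM21 transcript, 5' to 3', from the minus strand of chromosome 12 in GRCm38 and within the V exon. The capitals mark TGTGCAAGA, the codon for the conserved cysteine and the start of the third complementarity-determining region, where the D segment is joined. The motif was searched in the last 20 bases of each transcript on the transcribed strand and was found in 84 of the 185 members (45.4%).
Ighv1-54: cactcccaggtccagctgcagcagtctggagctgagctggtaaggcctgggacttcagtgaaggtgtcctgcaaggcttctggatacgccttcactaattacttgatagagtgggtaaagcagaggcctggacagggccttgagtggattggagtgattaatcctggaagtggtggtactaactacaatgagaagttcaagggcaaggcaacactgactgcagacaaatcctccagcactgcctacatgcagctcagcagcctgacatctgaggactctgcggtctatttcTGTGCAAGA
Ighv1-14: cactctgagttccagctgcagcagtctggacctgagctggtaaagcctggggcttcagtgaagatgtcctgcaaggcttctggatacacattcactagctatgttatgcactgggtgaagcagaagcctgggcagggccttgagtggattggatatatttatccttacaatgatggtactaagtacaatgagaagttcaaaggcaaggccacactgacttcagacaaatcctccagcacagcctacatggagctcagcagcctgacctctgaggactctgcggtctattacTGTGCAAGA
Ighv1-26: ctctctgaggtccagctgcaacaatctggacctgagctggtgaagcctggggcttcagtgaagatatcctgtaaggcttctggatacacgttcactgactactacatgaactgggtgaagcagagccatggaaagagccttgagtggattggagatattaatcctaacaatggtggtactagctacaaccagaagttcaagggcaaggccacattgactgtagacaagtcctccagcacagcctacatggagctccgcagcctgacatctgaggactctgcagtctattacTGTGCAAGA
Ighv1-72: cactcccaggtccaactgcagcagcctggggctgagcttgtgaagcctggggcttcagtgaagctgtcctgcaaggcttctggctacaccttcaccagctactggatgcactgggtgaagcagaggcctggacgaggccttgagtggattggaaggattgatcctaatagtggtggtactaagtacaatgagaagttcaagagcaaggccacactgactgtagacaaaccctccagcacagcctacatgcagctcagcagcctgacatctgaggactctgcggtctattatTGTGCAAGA
Ighv9-3: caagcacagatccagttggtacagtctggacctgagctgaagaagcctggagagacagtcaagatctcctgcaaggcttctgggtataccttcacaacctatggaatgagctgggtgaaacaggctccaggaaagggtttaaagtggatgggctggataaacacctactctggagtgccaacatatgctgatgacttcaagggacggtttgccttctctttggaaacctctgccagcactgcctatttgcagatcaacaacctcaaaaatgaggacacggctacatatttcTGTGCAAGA
The stretches are chr12:115193675-115193974 for Ighv1-54, chr12:114646572-114646871 for Ighv1-14, chr12:114788372-114788671 for Ighv1-26, chr12:115757984-115758283 for Ighv1-72 and chr12:114140692-114140991 for Ighv9-3. Over these bases Ighv1-54 shared 87.7% of aligned positions with Ighv1-14, 85.3% with Ighv1-26, 88.7% with Ighv1-72 and 66.6% with Ighv9-3. Its closest member was Ighv1-63, at 93.0%. Members of a family can be closer still: the median identity to the closest member was 93.3%, Ighv1-72 matched Ighv1-62-3 at 99.0%, and Ighv1-62-2 matched Ighv1-71 at every position (100%). Reads that fit more than 1 gene are dropped by the counting, so low or absent counts in such pairs are uncertain. The mice are of another C57BL substrain than the reference, and mutated V regions were read against germline sequences.

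The 4 libraries held 8242 to 13848 barcodes and 69828595 to 109447030 UMIs, and 7826 to 13387 cells per library passed the filters. Pairs of libraries shared 18 to 41 barcodes. Cells were clustered without any immunoglobulin gene, and each cell name below means cells like that type by marker transcripts. The plasma-like cells formed 2 clusters with 394 cells, of which 169 had a Rhox5 UMI. Rhox5, a homeobox gene, marks the injected line in these data, and the positive cells held a median of 21 Rhox5 UMIs. One cluster of 223 cells had 0 Rhox5 UMIs in all, and the other had 2 negative cells among 171. B cells (3314) comprised 351 pro-B and large pre-B-like cells, 392 small pre-B and immature B-like cells, 1572 mature B-like cells and clusters left unnamed, the largest a Ms4a1-high cluster of 627 cells. A further cluster of 65 cells with neutrophil transcripts was left out, since 52.3% of it were called doublets. Another cluster of 268 cells had B cell markers, but 90.3% of it were called doublets. It was left unnamed and counts among the cells outside the B and plasma-like clusters.

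V gene molecules were most abundant in the plasma-like cells, intermediate in the myeloma-like cells and sparse in B cells. In Rhox5-negative plasma-like cells the members together held 929.9 (vehicle 1) and 997 (vehicle 2) CPM (the members' share of all UMIs of these cells, in parts per 1000000) with vehicle, against 566 (PM 1) and 762 (PM 2) CPM under PM. For the Rhox5-positive cells the level was 79.1 and 67.2 CPM with vehicle, and 67.4 and 63.1 CPM after PM. Mature B-like cells had 20.8, 25.2, 23.9 and 29.5 CPM in vehicle 1, vehicle 2, PM 1 and PM 2. The 3 ranges do not overlap, so each of the 4 mice gave the same order.

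The share of cells in which any V gene was seen followed the same order. In the vehicle mice it was 100% (40 of 40 plasma-like cells; exact 95% Clopper-Pearson interval 91.2 to 100%) and 96.3% (87.3 to 99.5%), and in the PM mice it was 91.3% (82.8 to 96.4%) and 94.1% (83.8 to 98.8%). Myeloma-like cells gave 76.2%, 85.2%, 85.7% and 80.0% for vehicle 1, vehicle 2, PM 1 and PM 2, and mature B-like cells gave 4.76%, 5.86%, 4.78% and 6.20%. These intervals cover counting error only. T and NK-like cells, which do not rearrange this locus productively, gave 0.772%, 1.15% and 0.848% in vehicle 1, vehicle 2 and PM 1, and 0 of 541 cells in PM 2, which allows a share of up to 0.555%. The median depth was 3325 to 3827 UMIs in T and NK-like cells against 2008 to 2452 in mature B-like cells, so the share in mature B-like cells was above this background at a lower depth.

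Depth differed strongly between the classes, with medians of 14920 to 22470 UMIs in plasma-like and 29625 to 40933 in myeloma-like cells. When each cell was thinned to 1500 UMIs, a V gene was still seen in 67.5%, 61.1%, 49.4% and 48.0% of the plasma-like cells of vehicle 1, vehicle 2, PM 1 and PM 2. The thinned shares were 4.76%, 0%, 14.3% and 10.0% in the myeloma-like cells and 4.44%, 3.06%, 3.59% and 4.64% in the mature B-like cells. Thinning left out 2 of 225 plasma-like, 0 of 169 myeloma-like and 156 of 1572 mature B-like cells. At equal depth the plasma-like cells stayed above both other classes in all 4 mice, while the myeloma-like cells overlapped with the mature B-like cells.

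**Figure D1:**
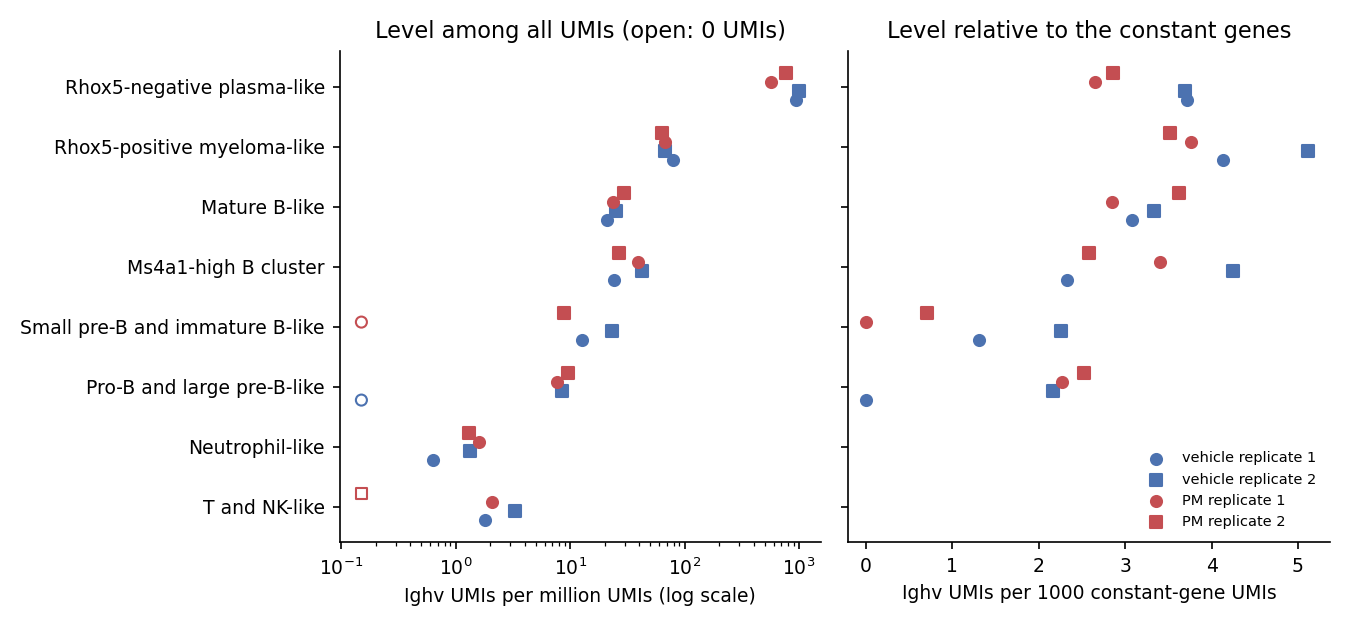
The left panel plots Ighv CPM on a log scale, with open symbols at the left edge for a level of 0, and the right panel Ighv UMIs per 1000 heavy-chain constant UMIs, by cell class, with 1 point per mouse (blue vehicle, red PM, circle replicate 1, square replicate 2). T and NK-like and neutrophil-like cells are in the left panel only. Levels above 0 span 0.628 CPM in neutrophil-like cells to 997 in plasma-like cells. Relative to the constant genes the mature B-like, plasma-like and myeloma-like points all lie between 2.66 and 5.11.

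Relative to the constant genes of the heavy chain the mature B-like, plasma-like and myeloma-like cells lay close together. Per 1000 constant UMIs there were 3.08, 3.33, 2.85 and 3.63 V UMIs in mature B-like cells, in the order vehicle 1, vehicle 2, PM 1, PM 2. The values were 3.72, 3.69, 2.66 and 2.86 in plasma-like cells and 4.13, 5.11, 3.76 and 3.52 in myeloma-like cells. The early stages were below the mature B-like cells in every mouse, on 0 to 14 V UMIs a mouse. They held 0, 2.16, 2.28 and 2.53 (pro-B and large pre-B-like) and 1.31, 2.25, 0 and 0.709 (small pre-B and immature B-like). Neutrophil-like cells, outside the lineage, held 3.10, 8.18, 5.13 and 5.96, so similar or higher ratios were also seen there. The constant genes made up 21.3 to 27.0% of all UMIs in the plasma-like cells, 1.31 to 1.91% in the myeloma-like cells and 0.675 to 0.839% in the mature B-like cells.

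A single V gene led the myeloma-like cells in every mouse. Ighv1-54 led 16 of 16 cells with a leading V gene in vehicle 1 (100%, 95% interval 79.4 to 100%), 21 of 21 in vehicle 2 (83.9 to 100%), 74 of 76 in PM 1 (97.4%, 90.8 to 99.7%) and 22 of 23 in PM 2 (95.7%, 78.1 to 99.9%). Of the 169 cells, 28 had no V UMI and 5 were tied, and the other 136 included 133 led by Ighv1-54. The 3 exceptions were 2 cells of PM 1 led by Ighv1-14 and 1 cell of PM 2 led by Ighv1-55, each with a single UMI. With at least 2 UMIs asked of the leading gene, 99 of 99 cells were led by Ighv1-54. Every one of the 169 cells had Ighg2b as its leading constant gene, the isotype of the 5TGM1 paraprotein. Of the 126 cells led by Ighv1-54 that also had a leading light-chain V gene, 125 had Igkv10-96.

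Counted by molecules, Ighv1-54 held 399 of the 425 V UMIs in these cells (93.9%), with a median of 2 and a highest value of 10 in a cell. Its level was 72.9 CPM in vehicle 1, 64.7 in vehicle 2, 63.0 in PM 1 and 58.8 in PM 2. The groups do not overlap, but the PM 1 and vehicle 2 values differ by less than the vehicle mice differ from each other. Ighv1-54 was the single member that passed the low-count filter here. Its log2 fold change with PM was -0.18 ± 0.23 (SE), with an adjusted p of 0.937 by edgeR's quasi-likelihood test with Benjamini-Hochberg adjustment. Among all genes tested in the myeloma-like cells, 0.347% were called at an adjusted p below 0.05 and a log2 change beyond 0.5.

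Ighv1-14, annotated as a pseudogene 1121 kb from the D segments (Ighv1-54 lies at 1668 kb), was counted only in the myeloma-like cells. It had 20 UMIs, 1 in each of 20 cells: 3 in vehicle 1, 2 in vehicle 2, 11 in PM 1 and 4 in PM 2. Of those 20 cells, 18 also held Ighv1-54. No UMI of Ighv1-14 was seen in any other cell of the series. The remaining 6 V UMIs of the 169 cells were spread over 1 to 3 per mouse.

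Outside the Rhox5-positive cells, Ighv1-54 was seen in no B cell. Rhox5-negative plasma-like cells held 100 of its UMIs in 7 cells. Of these UMIs 38 were in vehicle 1, 55 in vehicle 2, 0 in PM 1 and 7 in PM 2, and a single vehicle 2 cell held 40. One of the 7 cells, in PM 2, had 3 Ighv1-54 UMIs, Ighg2b and Igkv10-96, and lay in the cluster of Rhox5-positive cells. The other 6 had other light-chain V genes, and 4 of them were led by Igha. Both vehicle 2 cells with 14 and 40 Ighv1-54 UMIs also led with Igha and Igkv4-59. Other cell types held 15 single UMIs of Ighv1-54, 6 of them in eosinophil/basophil progenitor-like cells.

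**Figure D2:**
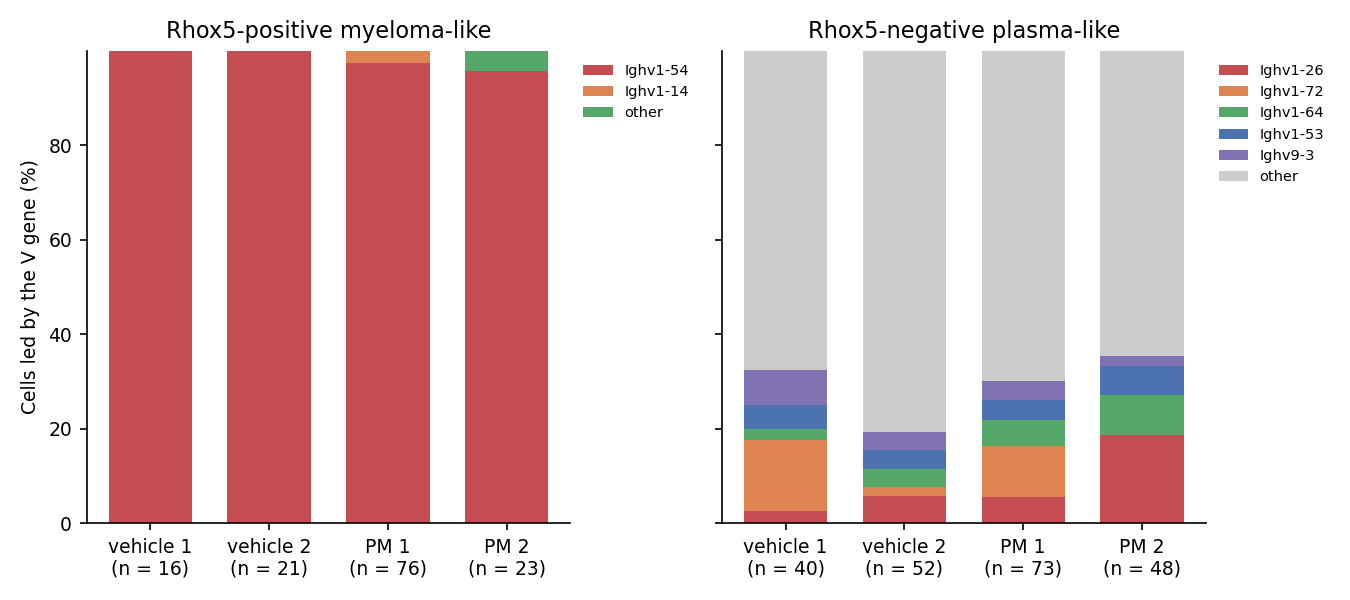
Bars give the percentage of cells led by each V gene, by mouse, among cells with a leading V gene (n under each bar), for Rhox5-positive myeloma-like (left) and Rhox5-negative plasma-like cells (right). Ighv1-54 fills 95.7 to 100% of the left bars, whereas the 5 most frequent genes together fill the smaller part of each right bar.

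The Rhox5-negative plasma-like cells used many V genes. Of the 225 cells, 213 had a leading V gene, and these were 62 different genes. There were 29 different genes among 40 cells in vehicle 1, 33 among 52 in vehicle 2, 32 among 73 in PM 1 and 28 among 48 in PM 2. Brought to 16 cells, the expected number of different genes was 13.4, 14.1, 12.7 and 12.4 in the same order, against 14.2 and 15.1 in the mature B-like cells of PM 1 and PM 2 and 1.00 to 1.70 in the myeloma-like cells. V UMIs of these plasma-like cells came almost wholly from the leading gene (98.6%). Of 200 cells with at least 2 V UMIs, 180 had UMIs of a single V gene, and 6 cells had a second V gene at 2 UMIs or more.

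The 5 V genes with the highest mean share of led cells over the mice were Ighv1-26, Ighv1-72, Ighv1-64, Ighv1-53 and Ighv9-3. Ighv1-26 led 17 cells, with 1 in vehicle 1, 3 in vehicle 2, 4 in PM 1 and 9 in PM 2. Ighv1-72 led 15 cells and was uneven among mice, with 6 in vehicle 1, 1 in vehicle 2, 8 in PM 1 and 0 in PM 2. Ighv1-64 led 11, Ighv1-53 led 10 and Ighv9-3 led 9, and each of these 3 led at least 1 cell in every mouse. No single gene led more than 18.8% of the cells of a mouse, a value reached by Ighv1-26 in PM 2. A single cell could hold a large part of a gene's molecules: of the 315 UMIs of Ighv1-64, 207 were in PM 2 and 93 in 1 cell.

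Most plasma-like cells were IgA cells by their leading constant gene. Igha led 142 cells, the IgG genes led 81 and Ighm led 2. Among the 135 Igha cells with a leading V gene, Ighv1-26 led 13 (1, 2, 3 and 7 in vehicle 1, vehicle 2, PM 1 and PM 2), Ighv1-9 led 8 and Ighv9-3 led 8. In the 76 IgG cells, Ighv1-72 led 9 (5, 0, 4 and 0), Ighv1-55 led 7 (0, 1, 5 and 1) and Ighv1-53 led 5. The Ighm cells, 1 in each PM mouse, were led by Ighv5-17 and Ighv1-53. Ighv1-26 came first among Igha cells and led 4 IgG cells. Of its 13 Igha cells 7 were in PM 2, and these counts over cells were not tested.

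V molecules were more frequent in IgG than in Igha cells in every mouse. Per 1000 constant UMIs the Igha cells held 2.27, 3.06, 2.07 and 1.60 V UMIs in vehicle 1, vehicle 2, PM 1 and PM 2. The IgG cells held 5.12, 6.19, 3.87 and 4.05. The 2 sets do not overlap, and the median over single cells gave the same order in each mouse, with 1.55 against 4.09, 2.58 against 3.84, 1.54 against 2.45 and 1.21 against 3.40. The myeloma-like cells, all led by Ighg2b, overlapped with the IgG cells, at 3.52 to 5.11. Among the plasma-like cells led by Ighg2b alone the values were 7.67 (7 cells), 5.92 (7 cells), 5.08 (20 cells) and 4.71 (8 cells). The 7.67 of vehicle 1 rested on 1 cell with 215 of 345 V UMIs, and it was 3.31 without that cell.

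**Figure D3:**
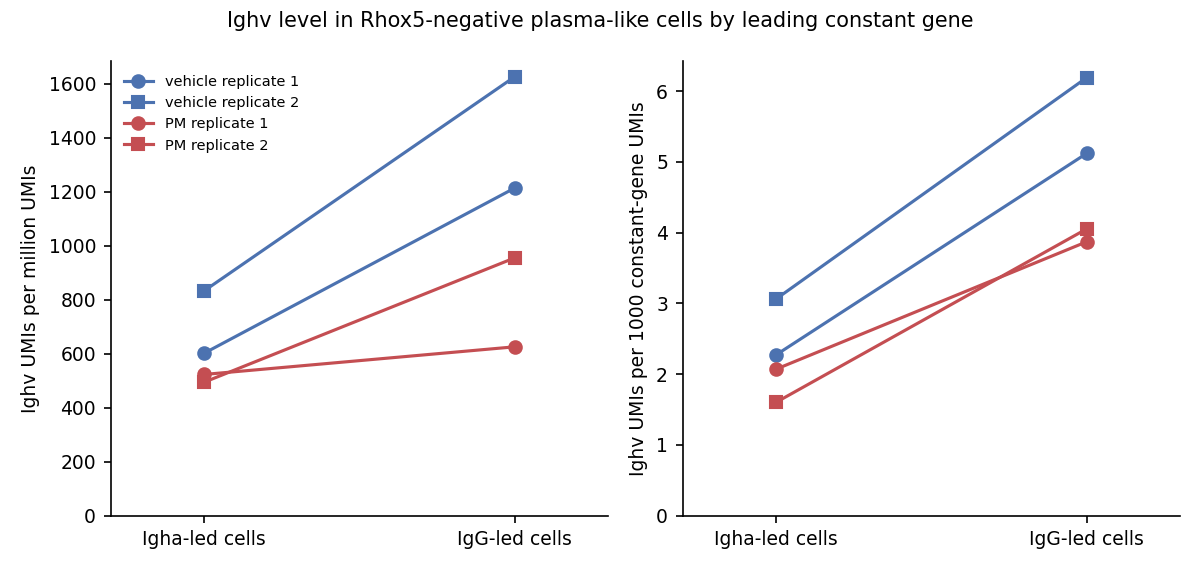
Points give the Ighv level of Rhox5-negative plasma-like cells led by Igha or by an IgG gene, joined by mouse (blue vehicle, red PM), in CPM (left) and per 1000 constant-gene UMIs (right). All 4 lines rise from Igha to IgG cells on both scales, and the vehicle mice lie above the PM mice within each isotype, which for IgG cells of vehicle 1 rests on 1 cell.

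The share of V molecules in plasma-like cells was lower in both PM mice than in both vehicle mice, but 1 vehicle cell decided that the groups did not overlap. The summed level was 964 ± 47.7 CPM (SD, n = 2) in vehicle and 664 ± 139 (n = 2) in PM, a log2 ratio of -0.54. One IgG2b cell of vehicle 1 held 215 UMIs of Ighv7-4, or 23.5% of the V UMIs of that mouse. Without it vehicle 1 had 730.3 CPM, below the 762 CPM of PM 2, so that PM was lower in 3 of 4 pairs of mice, and the log2 ratio was -0.38. The exact permutation test (two-sided) gave p = 0.333, the smallest p possible with 2 mice a group. The direction was the same within Igha cells, at 601 and 832 CPM in vehicle against 523 and 494 in PM, and within IgG cells, at 1213 and 1625 against 625 and 955. Without that cell the IgG value of vehicle 1 was 847 CPM, below that of PM 2. The median cell held 11 (vehicle 1), 15 (vehicle 2), 6 (PM 1) and 7 (PM 2) V UMIs. Per 1000 constant UMIs the groups did not overlap, with that cell or without it (2.91 and 3.69 against 2.66 and 2.86). Total depth moved the same way, with a median of 22470 and 19441 UMIs per plasma-like cell in vehicle and 14920 and 16860 in PM, and its part in the difference was not tested.

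No single V gene was called between PM and vehicle in the plasma-like cells. Of the 22 members that passed the low-count filter, 8 were higher and 14 lower with PM, with a median log2 fold change of -0.34 against 0.01 over all genes, and 2 had an unadjusted p under 0.05. By edgeR's quasi-likelihood test 0 of the 22 were called, against 0.0497% of all genes tested. Those 2 were Ighv7-3 and Ighv1-54. Ighv7-3 had 127 UMIs from 3 cells in vehicle 1, 37 from 1 cell in vehicle 2 and 0 in PM 1 and PM 2 (adjusted p 0.996 by edgeR). Ighv1-54 is described above, and its adjusted p in these cells was 0.996 by edgeR. The UMIs of each tested member came from 2 to 17 cells, and a single cell held 19.3 to 70.9% of them. DESeq2 called Ighv7-3 on the same sums (adjusted p 0.00814).

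In B cells the V molecules were too sparse for single genes. All B cells together held 209 V UMIs in 3314 cells, and 0 members passed the low-count filter in the comparison of PM with vehicle, where 5.76% of all genes tested were called. The same held within the mature B-like (1.68% of all genes called), the small pre-B and immature B-like (3.46%) and the pro-B and large pre-B-like cells (4.81%). The stage comparisons gave 0 tested members as well, with 28.5% of all genes called between mature B-like and small pre-B and immature B-like cells and 39.2% between the early stages. Those stage calls follow from the clustering, which used the same genes. The summed V level of all B cells was 14.1, 21.7, 21.1 and 21.5 CPM in vehicle 1, vehicle 2, PM 1 and PM 2, and the groups overlapped.

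Family 1 took a lower share of the early B cells than of the mature ones, a difference that the test over 4 mice could not call. It led 44 of the 83 mature B-like cells with a leading V gene (53.0%, 95% interval 41.7 to 64.1%) and 28 of 51 cells of the Ms4a1-high cluster (54.9%, 40.3 to 68.9%). In the pro-B and large pre-B-like cells it led 6 of 22 (27.3%, 10.7 to 50.2%), and in the small pre-B and immature B-like cells 2 of 16 (12.5%, 1.55 to 38.3%). By mouse, it led 2 of 5, 7 of 14, 24 of 41 and 11 of 23 mature B-like cells in vehicle 1, vehicle 2, PM 1 and PM 2. Both early stages together gave 0 of 1 cell, 5 of 23, 2 of 7 and 1 of 7. The mature share was higher in 4 of 4 mice, by 32.9 ± 5.19 percentage points (SD, n = 4), with an exact sign-flip p of 0.13, the smallest that 4 mice allow. Of all B cells 17 had 2 or more V UMIs, so a leading gene mostly rested on 1 UMI, and 23 of the 38 early cells came from vehicle 2.

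The family 1 share of the plasma-like cells was above that of the mature B-like cells in each mouse, and this difference was not called either. It led 22 of 40, 29 of 52, 47 of 73 and 32 of 48 cells in vehicle 1, vehicle 2, PM 1 and PM 2, and the share was 55.8% in vehicle 2, 64.4% in PM 1 and 66.7% in PM 2. The difference was 11.4 ± 6.60 percentage points (SD, n = 4, higher in 4 of 4 mice, exact sign-flip p 0.13). The pooled intervals overlap (54.1 to 67.6% in plasma-like cells), and in vehicle 1 only 5 mature B-like cells had a leading V gene. Among cells with a leading V gene, family 2 led 22 of the 213 plasma-like (10.3%) and 3 of the 83 mature B-like cells (3.61%). Family 5 led 16 (7.51%) and 11 (13.3%) of them. Family 14 led 8 cells in each class, or 3.76% of these plasma-like and 9.64% of these mature B-like cells. The myeloma-like cells, all in family 1, are 1 clone and say nothing of family use.

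**Figure D4:**
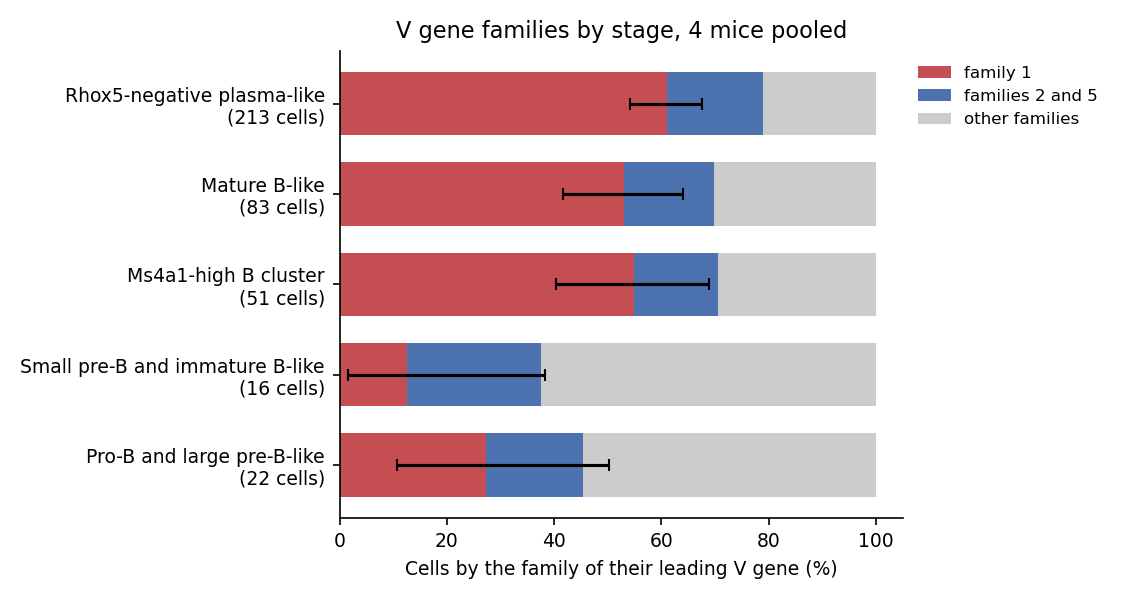
Bars give the percentage of cells by the family of their leading V gene, with the 4 mice pooled. Black lines give the exact 95% interval of the family 1 share, which covers counting error only. The mice weigh unequally: 23 of the 38 early cells came from vehicle 2 and 41 of the 83 mature B-like cells from PM 1. Family 1 takes 12.5 and 27.3% in the early stages, 53.0 to 54.9% in the later B cells and 61.0% in the plasma-like cells.

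Among the B cells the leading genes were scattered. The 83 mature B-like cells with a leading V gene were led by 47 different V genes. By mean share over the mice the first 5 were Ighv3-6 (4 cells), Ighv1-26 (5 cells), Ighv1-55, Ighv2-9 and Ighv8-12 (1 cell each), and the last 3 stand there through vehicle 1, where 5 cells had a leading gene. The pro-B and large pre-B-like cells were led by 18 genes, first Ighv3-6, Ighv4-1, Ighv1-23 and Ighv1-47 (2 cells each) and then Ighv1-18 (1 cell). In the small pre-B and immature B-like cells Ighv6-6, Ighv2-9-1 and Ighv9-3 led 2 cells each, and Ighv7-4 and Ighv1-4 led 1 each. Ighv1-26, the first gene in plasma-like cells, was thus also among the first in mature B-like cells, and Ighv1-54 led none of the B cells.

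**Figure D5:**
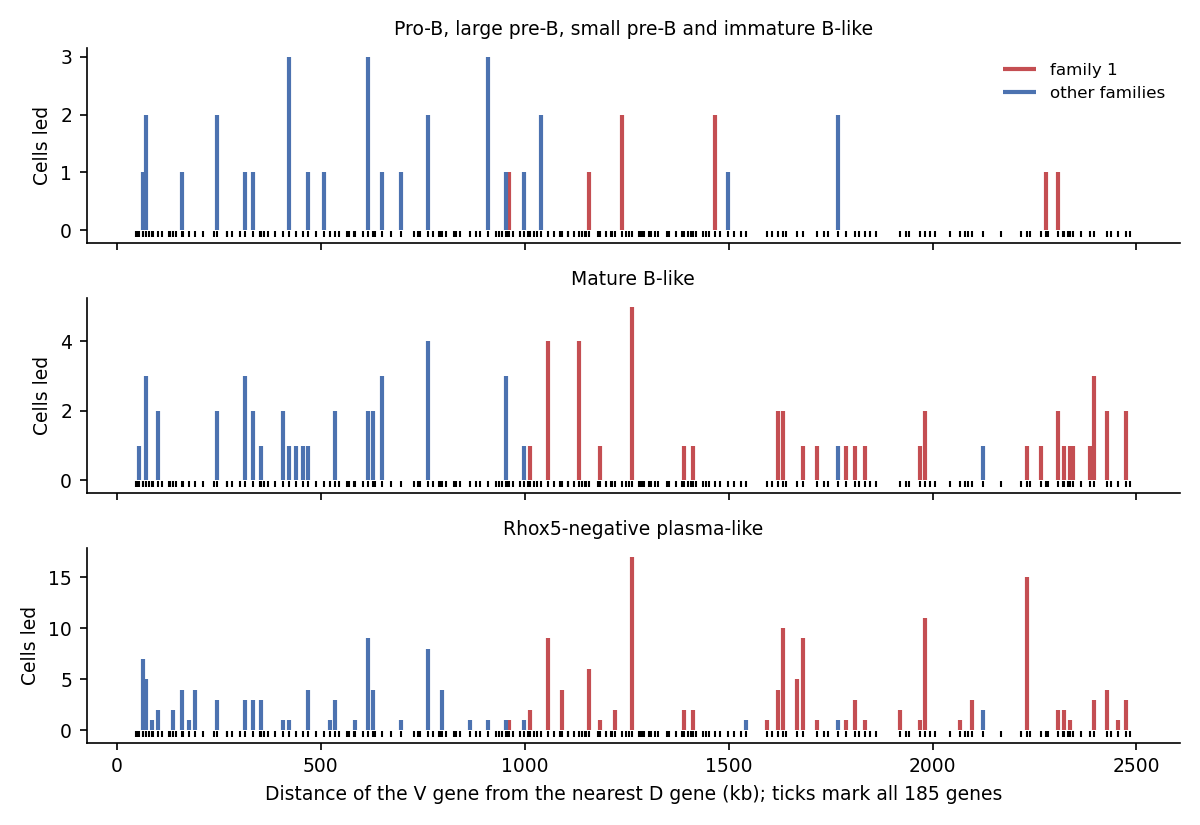
Each line is a V gene at its distance in kb from the nearest D gene, with the number of cells it led in early (top), mature B-like (middle) and Rhox5-negative plasma-like cells (bottom); red marks family 1 and ticks mark all 185 genes. The median distance of the leading gene was 836 and 656 kb in the early stages, 1058 kb in mature B-like and 1263 kb in plasma-like cells.

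Several recombination genes fell in the B cells of PM mice. Of 14 recombination genes, all tested, 6 fell and 0 rose by edgeR's test in all B cells, where 5.76% of all genes were called, with a median log2 fold change of -0.56 against 0.02 over all genes. Rag1, a subunit of the recombinase, had 166 and 317 CPM in vehicle against 64.7 and 60.4 in PM, a log2 change of -1.99 ± 0.27 (SE; edgeR adjusted p 0.00644). Rag2, its partner, had 109.5 and 113 against 21.1 and 21.1, a log2 change of -2.39 ± 0.18 (edgeR adjusted p 1.35e-07). Dntt, which adds nucleotides at the joins, had 156 and 197 against 60.5 and 45.0. The end-joining factors Xrcc6 and Lig4 and the polymerase Polm also fell. The groups do not overlap for any of these 6 genes, which adds nothing to the calls, since the same 4 sums picked them. The call of Lig4 was lost without vehicle 1, and those of Lig4 and Polm without vehicle 2, which left 5 and 4 of 14 genes called, while Rag1, Rag2, Dntt and Xrcc6 were called with each mouse left out in turn and by DESeq2.

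The make-up of the B cells moved in the same direction. Pro-B, large pre-B, small pre-B and immature B-like cells were 30.9% of B cells in vehicle 1, 42.7% in vehicle 2, 10.8% in PM 1 and 15.3% in PM 2. Within mature B-like cells 0 of 8 tested recombination genes were called (1.68% of all genes called). Of the 6 genes above only Lig4 and Xrcc6 passed the filter there. Within small pre-B and immature B-like cells 0 of 6 were called (3.46% of all genes called). All 6 were lower (log2 changes -0.22 to -0.89), with Dntt not tested. Within pro-B and large pre-B-like cells 4 of 12 fell (4.81% of all genes called), namely Rag2, Polm, Xrcc6 and Dntt. That stage joins a cycling cluster and a Dntt-high cluster, with 26 and 10 cells in vehicle 1, 116 and 32 in vehicle 2, 69 and 31 in PM 1, and 54 and 13 in PM 2, and these genes helped to form the clusters. In sums over all B cells, fewer cells of a stage and less RNA per cell cannot be told apart. Their parts in the falls within a stage were not tested. Of the 6 receptor partners, Vpreb3, which binds the new heavy chain in pre-B cells, fell (log2 change -0.97 ± 0.16 SE; edgeR adjusted p 0.000922), and the other 5 were not called. Without vehicle 2 the call of Vpreb3 was lost. It was called in no single stage, with log2 changes of -0.57 in pro-B and large pre-B-like, 0.05 in small pre-B and immature B-like and -0.28 in mature B-like cells. Vpreb2, part of the surrogate light chain, rose in pro-B and large pre-B-like cells (log2 change 1.13, edgeR adjusted p 0.00927). In all B cells it rose without vehicle 2, with no filter beyond 1 count and with the replicate block.

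Of the list of 8 constant genes and Jchain, 8 were tested in B cells, where 5.76% of all genes were called. Ighg3 alone was called (edgeR adjusted p 0.0118). It had 0 UMIs in vehicle 1 (236 B cells), 14 in vehicle 2 (956), 56 in PM 1 (1398) and 37 in PM 2 (724). These counts are not scaled to the unequal sums, and the mean level of Ighg3 was 8.63 CPM. DESeq2 did not call it. With no filter beyond 1 count Igha and Ighd also rose, and with the replicate block Ighd did. Which of the list were called also changed when some single mice were left out. Within mature B-like cells the log2 change of Ighg3 was -0.06 ± 0.58 (SE). Ighg2b rose in small pre-B and immature B-like cells (log2 change 2.33; edgeR adjusted p 3.03e-07) and in pro-B and large pre-B-like cells (1.14; edgeR adjusted p 0.0193), and Ighd rose in the former (1.00; edgeR adjusted p 0.0138). The mean Ighg2b level was low, at 155 CPM in the former and 78.5 in the latter. It was 16251 CPM in the myeloma-like cells, which were all led by Ighg2b. The small pre-B and immature B-like sums rested on 37, 260, 51 and 44 cells in vehicle 1, vehicle 2, PM 1 and PM 2. In T and NK-like cells constant genes made up 0.0398 and 0.0357% of UMIs in vehicle against 0.0552 and 0.0415% in PM. In HSPC-like cells they made up 0.0208 and 0.0196% against 0.0381 and 0.0538%. Neutrophil-like cells held 0.0203 and 0.0163% against 0.0314 and 0.0219%. Monocyte and progenitor-like cells held 0.0220 and 0.0262% against 0.0453 and 0.0313%. Both PM mice were also above both vehicle mice in macrophage, erythroid, megakaryocyte and endothelial-like cells. Dendritic-like cells showed no such rise, at 0.170 and 0.180% against 0.146 and 0.179%. In eosinophil/basophil progenitor-like and stromal-like cells the groups overlapped. These shares sum all constant genes, not Ighg2b alone. The part of antibody RNA from other cells in the rises of Ighg3, Ighg2b and Ighd was not tested. In the plasma-like cells Ighm alone of 8 tested was called, where 0.0497% of all genes were. It had 136 and 128 CPM in vehicle against 2501 and 5069 in PM (edgeR adjusted p 0.0344). The call was lost without vehicle 1 and without vehicle 2. A single Ighm cell in each PM mouse held 2730 of the 2988 Ighm UMIs in PM 1 and 4992 of the 5166 in PM 2. In the myeloma-like cells, where 0.347% of all genes were called, edgeR called 0 of 10 tested recombination genes, 0 of 1 receptor partner and 0 of 5 constant genes.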

How the data were processed

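The deposited gene-by-cell matrices hold UMI counts that the authors made with Cell Ranger 6.0.1 (per the file headers). The submitters' processing notes list STAR and GRCm39, whereas all 185 gene identifiers matched GENCODE vM21, so GRCm38 coordinates are given. Barcodes under 300 detected genes or over 20% mitochondrial counts were dropped, and called doublets (1.25 to 5.36% of cells) were kept in the main analysis. Cells were clustered without immunoglobulin genes (Leiden, 30 components) and named by marker lists. Counts were summed per mouse and class and tested with edgeR 4.0.16 (quasi-likelihood, TMM, filterByExpr, Benjamini-Hochberg), called at adjusted p below 0.05 and a log2 fold change beyond 0.5, and checked on simulated counts. Alternatives were DESeq2 1.42.0, other scaling and filters, a replicate block and leaving out each mouse. Shares carry Clopper-Pearson intervals. Thinning used 1500 UMIs per cell. Named genes were the V gene leading most Rhox5-positive cells and any leading at least 3, the first 5 per B stage and in plasma-like cells by mean share over mice with a led cell, the first 3 among Igha, IgG and Ighm cells, and any called. Where a gene falls outside it (Ighv1-41, for example), it was chosen after its values were seen. The V genes and lists were chosen with earlier results of these data known.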

Additional observations from a re-analysis of the deposited data

How the results depend on the processing

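Of 107 alternative values, 91 stayed near the main value, 15 moved further from it and 1 reversed its sign. Near meant within 1.5 times for a count, within the 95% interval for the Ighv1-54 share and within 1 SD otherwise. Several values that moved kept their direction. In B cells and between B stages 0 members were tested, except with no filter beyond 1 count, so those counts of 0 could not move. For plasma-like cells, where edgeR called 0 members between PM and vehicle, DESeq2 called 1 of 22 (Ighv7-3), with 6 of all 6042 genes called. A fit with no filter beyond 1 count called 9 of 67 members, with 47 of all 13811 genes called. Leaving out 1 mouse at a time changed the number called each time, but such a fit has a single mouse in 1 group. The log2 change of Ighv3-6 was -1.78 without vehicle 1 and 8.19 without vehicle 2. Ighv10-3 (-9.65 without vehicle 1) and Ighv7-4 (-10.9 without vehicle 2) had all their UMIs in 1 cell each. More members (35 to 42 in place of 22) pass the filter in those smaller fits. With the replicate block 1 member was called in these cells (Ighv7-3) and 0 of 1 tested in myeloma-like cells, while 0 were tested in B cells. Deviations of same-numbered mice from their group means correlated at 0.08, 0.10 and -0.07 in B, plasma-like and myeloma-like cells. With 2 mice a group this cannot show whether the numbers pair the mice, and the labels do not say. The summed share of all B cells, 0.25 on the log2 scale, ranged from -0.024 (without vehicle 1, where it reversed) to 0.60 (without vehicle 2) when 1 mouse was left out. In plasma-like cells the log2 ratio of -0.54 ranged from -0.77 (without PM 2) to -0.34 (without PM 1); it was -0.38 without the vehicle 1 cell with the most V UMIs and -0.41 without that of each mouse, both chosen after seeing the data. With at least 2 UMIs for the leading gene, the family 1 share of plasma-like over mature B-like cells differed by 50.7 percentage points, the number of different genes in mature B-like cells was 4 in place of 47, and the share of myeloma-like cells led by Ighv1-54 was 100%, also at 3 UMIs; the early stages could not give a value. Within single B stages, an alternative chosen after seeing the data, 0 members were tested. Counts over all genes that moved by more than 1.5 times were, for B cells, 601 by edgeR against 154 by DESeq2, 85 without vehicle 2 and 254 without PM 1; for plasma-like cells, 3 against 6 by DESeq2, 47 with no filter, 13 with the block and 7 to 22 with 1 mouse left out; for myeloma-like cells, 29 against 9 by DESeq2, 15 with stricter cell filters, 141 with no filter, 108 with the block and 70 to 171 with 1 mouse left out; and, between B stages, 2063 (mature B-like) against 1269 by DESeq2 and 1194 without vehicle 2, and 2804 (pro-B and large pre-B-like) against 1660 without vehicle 2. The alternatives for the gene lists were also chosen after seeing the data. Of 3314 B cells 16 had a V gene at 2 UMIs or more. The mature B-like cells held 88 V UMIs in 83 cells, so the 50.7 percentage points rest on few cells. In vehicle 1 they held 5 V UMIs in 5 cells, so that mouse could give no such cell.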

Other observations

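Outside the B and plasma-like clusters V gene molecules were rare. The cells there held 325 V UMIs, of which 76 were in unnamed clusters, including the doublet cluster with B cell markers. The first gene among them was the pseudogene Ighv1-41, with 61 UMIs in 60 cells. Neutrophil-like cells held 30 of these (3 and 8 in the vehicle mice, 13 and 6 in the PM mice), HSPC-like cells 11 and monocyte and progenitor-like cells 4. The 3708 B and plasma-like cells held 0 Ighv1-41 UMIs, which allows up to 0.146 CPM, while neutrophil-like cells held 0.311 CPM over all mice. By mouse these held 0.0991, 0.411, 0.511 and 0.280 CPM in vehicle 1, vehicle 2, PM 1 and PM 2, and monocyte and progenitor-like cells held 0.0830 CPM over all mice, so that vehicle 1 and the latter class lie under that limit. The limit pools B cells with the deeper plasma-like and myeloma-like cells, and it is higher for B cells alone. The pseudogene Ighv1-73 came next with 31 of its 32 UMIs outside the B and plasma-like clusters, 19 of them in neutrophil-like cells. In neutrophil-like cells 42.1 to 57.1% of V UMIs were on pseudogenes, against 0 to 0.110% in the Rhox5-negative plasma-like cells. Over all mice the share was 26.7% in HSPC-like, 22.6% in monocyte and progenitor-like, 15.4% in T and NK-like and 0% in eosinophil/basophil progenitor-like cells. Both genes were chosen after their values were seen, and no cause was tested.

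Several plasma-like cells of 1 mouse shared their leading V gene, light-chain V gene and isotype. In PM 1, 3 cells shared Ighv1-55, Iglv1 and Ighg2b, and 3 shared Ighv1-72, Igkv8-21 and Igha. In vehicle 2, 3 cells shared Ighv2-6, Igkv4-59 and Igha. The largest group by V gene and isotype alone was 7 Igha cells of PM 2 led by Ighv1-26. Without the joined D and J sequence, cells of 1 clone and cells that chose the same V genes cannot be told apart.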
